A study of Homo sapiens with 21 samples.

Results

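The PFKFB genes and their neighbours at the branch point of glycolysis were followed in BT-549 cells, an established triple-negative breast cancer (TNBC) cell line. The genes named were PFKFB1, PFKFB2, PFKFB3, PFKFB4, TIGAR, FBP1, TXNIP and ARRDC4, and their rows were found by matching each Ensembl identifier of the count table, without its version, to these symbols. Of the 8 named genes, 7 have a row among the 42339 genes of the table, and FBP1 is not analysed here. The study compared 2D monolayer cells with serially passaged mammospheres, called 3D cells, and asked what targeting the oncoprotein MUC1-C or the transcription factor MYC does to the mammospheres. Each of 7 groups held 3 cultures.

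The 2D cells grew in RPMI1640 with serum and insulin. The 3D cells were BT-549 mammospheres at passage 6, grown without serum in MammoCult medium on plates that prevent attachment, so medium and growth format cannot be told apart in the 3D vs. 2D comparison. A further set of such 3D cells received 0.75 µM GO-203, a cell-penetrating peptide that targets the cytoplasmic domain of MUC1-C. BT-549/tet-MUC1shRNA mammospheres at passage 6 and BT-549/tet-MYCshRNA mammospheres at passage 8 carried a doxycycline-inducible shRNA from a puromycin-selected lentiviral vector, and they received 0.1% DMSO as vehicle or 500 ng/ml doxycycline (DOX). A group with a control shRNA and DOX is not analysed here, so exposure to DOX and silencing cannot be told apart. The labels do not say how independent the 3 cultures of a group were, and p-values measure only the spread between these cultures.

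The bifunctional enzymes PFKFB1 to PFKFB4 make and break down fructose-2,6-bisphosphate, the strongest known allosteric activator of phosphofructokinase-1 and thus of the committed step of glycolysis. PFKFB1 is the liver form and PFKFB2 the heart form, PFKFB3 has by far the most kinase over phosphatase activity, and PFKFB4 is induced by hypoxia in many tumors. TIGAR removes the phosphate that PFKFB kinases add and diverts glucose into the pentose phosphate pathway. TXNIP and ARRDC4 are alpha-arrestins that limit glucose uptake, and TXNIP also binds thioredoxin. Both are known targets of MondoA and ChREBP, factors that sense glucose phosphates and bind DNA together with MLX.

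Because the members are read out as transcripts, the 250 bases before 4 of their start sites are given here, from RefSeq on GRCh38.p14, 5′ to 3′ on the strand of the gene. Of the 8 named genes, 7 have an entry, and PFKFB2 does not. Capitals mark the E-box CACGTG, the cores ACGTG and GCGTG of the hypoxia response element, and a pair of E-box-like sites (CACGNG or its reverse complement CNCGTG) with 5 bases between them, the general form of a carbohydrate response element. Each motif was searched on both strands, and each E-box also counts as a match to ACGTG. TXNIP is shown for its paired sites, ARRDC4 for its number of cores, and PFKFB3 (at the downstream of its RefSeq starts) and PFKFB4 because the levels of this pair moved in the same direction as each other in all 4 comparisons.
TXNIP, chr1:145996580-145996829, minus strand: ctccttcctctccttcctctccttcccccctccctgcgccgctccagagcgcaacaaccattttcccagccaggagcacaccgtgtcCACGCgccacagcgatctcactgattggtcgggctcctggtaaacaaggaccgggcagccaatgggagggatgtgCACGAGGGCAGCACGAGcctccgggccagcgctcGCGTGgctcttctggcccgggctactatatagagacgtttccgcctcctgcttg
ARRDC4, chr15:97960453-97960702, plus strand: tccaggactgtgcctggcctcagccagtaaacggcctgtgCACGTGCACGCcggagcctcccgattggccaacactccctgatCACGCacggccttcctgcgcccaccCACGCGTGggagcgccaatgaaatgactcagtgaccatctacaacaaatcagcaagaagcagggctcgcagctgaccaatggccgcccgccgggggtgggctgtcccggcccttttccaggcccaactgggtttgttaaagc
PFKFB3, chr10:6202682-6202931, plus strand: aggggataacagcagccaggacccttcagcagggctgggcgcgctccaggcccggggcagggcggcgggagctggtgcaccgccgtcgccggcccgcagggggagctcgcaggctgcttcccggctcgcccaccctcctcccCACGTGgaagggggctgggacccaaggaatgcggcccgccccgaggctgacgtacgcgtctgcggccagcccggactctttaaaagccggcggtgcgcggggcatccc
PFKFB4, chr3:48556804-48557053, minus strand: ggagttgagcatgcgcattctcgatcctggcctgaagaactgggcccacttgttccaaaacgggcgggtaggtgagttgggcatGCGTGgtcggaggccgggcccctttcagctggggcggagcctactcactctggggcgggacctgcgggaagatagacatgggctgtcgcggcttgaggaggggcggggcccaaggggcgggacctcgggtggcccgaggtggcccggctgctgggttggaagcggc

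The paired E-box-like sites were found before the upstream start of TXNIP and before no other start of a member, 72 to 88 bases from the start. Such a pair occurs in 23 of 35116 RefSeq promoters of this length, or 0.0655%. The E-box, which occurs in 6.34% of promoters, was found before the downstream start of PFKFB3 and before ARRDC4. ARRDC4, PFKFB4, FBP1, the upstream start of PFKFB3 and the upstream start of TXNIP held the core GCGTG, which 32.2% of promoters hold. TIGAR and the downstream start of TXNIP held the core ACGTG, which 18.5% of promoters hold, and the PFKFB1 entries held none of these motifs. A match says only that the letters are present in this window, and no binding was measured.

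**Figure D1:**
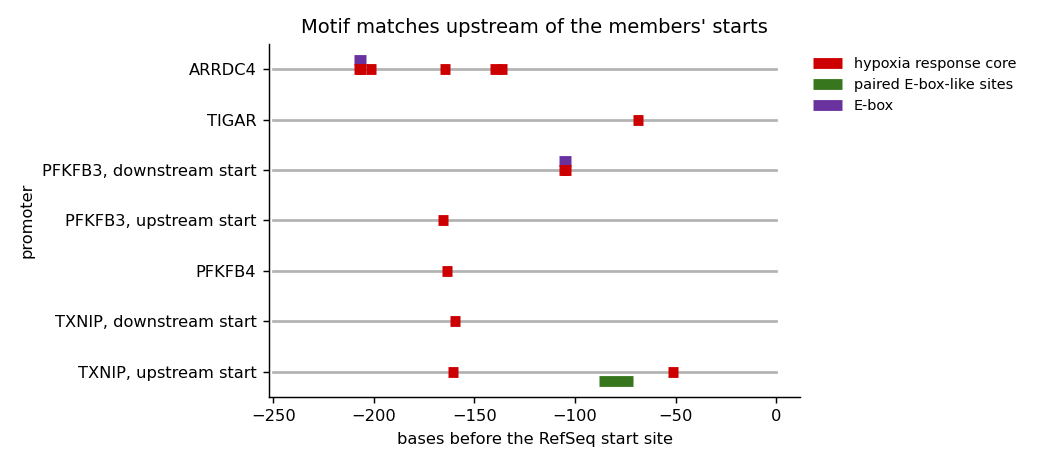
Positions of the searched motifs in the 250 bases before RefSeq start sites of members, in bases before the start (x axis), with 1 line for each start that held a match (y axis), except that of FBP1, which has no counts here and is not drawn. The paired E-box-like sites lie before the upstream TXNIP start only, and the hypoxia response cores drawn are spread over ARRDC4, TIGAR, PFKFB3, PFKFB4 and TXNIP.

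Total counts per library ran from 38026597 to 99751717, with a median of 53548353. Levels are given as CPM, a gene's counts relative to the library total, after that total was scaled by TMM factors over the 21 libraries. The labelled triple-negative cells had ESR1 at no more than 1.49 CPM and PGR at no more than 0.0706, while ERBB2 ran from 18.2 to 42.3. VIM, a mesenchymal intermediate filament gene, ran from 1067 to 2507 CPM, and the epithelial genes KRT8, KRT18, KRT19, EPCAM and CDH1 stayed at or below 1.55. The epithelial keratin KRT7, at 6.02 to 87.9 CPM, was higher in all 4 comparisons below, with log2 fold changes of 2.93 (3D vs. 2D), 0.39 (GO-203), 1.92 (MUC1 silencing) and 2.06 (MYC silencing). In 3D vs. 2D cells CDH1 fell from 1.45 to 0 CPM and ERBB2 fell with a log2 fold change of -0.63. KRT8 rose there from 0.179 to 0.496 CPM (log2 fold change 1.51). On MUC1 silencing KRT8 (4.84), KRT18 (4.48) and CDH1 (3.26) rose, to means of no more than 1.36 CPM, and ERBB2 fell (-0.25). Of these 10 breast, epithelial and mesenchymal markers, 3 were higher and 2 lower of 5 tested in 3D vs. 2D cells. With GO-203, 1 was higher of 5. On MUC1 silencing 5 were higher and 1 lower of 7, and on MYC silencing 3 were higher and 1 lower of 4. The mesenchymal VIM counts among those that passed, at 0.12 (3D vs. 2D), 0.18 (MUC1 silencing) and -0.18 (MYC silencing). Of 7 markers of other cell types, 6 stayed at or below 1.49 CPM and PECAM1 reached 10.3. The sum of the 7 was 1.44 to 1.96 CPM in 2D cells and 6.02 to 7.25 in 3D cells, where PECAM1 rose from 0.0118 to 6.62 CPM and PTPRC fell from 1.28 to 0.0621. It was 6.49 to 7.20 with GO-203, 4.47 to 4.85 and 3.16 to 3.93 in vehicle- and DOX-treated tet-MUC1shRNA cells, and 6.75 to 7.49 and 9.30 to 10.8 in vehicle- and DOX-treated tet-MYCshRNA cells. The part of either marker list in the results was not tested.

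The 7 members with a row differ widely in level. PFKFB3 (ENSG00000170525.21) lies on chromosome 10 of GRCh38 from 6144934 to 6254644 on the plus strand, and PFKFB4 (ENSG00000114268.12) on chromosome 3 from 48517684 to 48562015 on the minus strand. PFKFB2 (ENSG00000123836.15) lies on chromosome 1 from 207034366 to 207081024 on the plus strand, and TXNIP (ENSG00000265972.6) on the minus strand of the same chromosome from 145992435 to 145996579. TIGAR (ENSG00000078237.7) lies on chromosome 12 from 4307763 to 4360028 on the plus strand. In GENCODE release 44, 18.1% of the exon bases of TIGAR also belong to another gene of the same strand, PFKFB4 shares 4.88% with UCN2, and PFKFB2 shares 3.10% with YOD1 on the opposite strand, and reads from those stretches cannot be assigned to a gene with certainty.

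PFKFB1 and ARRDC4 were close to the limit of detection. PFKFB1 (ENSG00000158571.11, chromosome X from 54932961 to 54998534, minus strand) collected 169 counts over all 21 libraries, 1 to 29 in each. ARRDC4 (ENSG00000140450.9, chromosome 15 from 97960703 to 97973833, plus strand) collected 8 counts, with 17 of 21 libraries at 0. Its pooled rate of 0.00678 CPM, on unscaled totals, has a 95% exact Poisson interval of 0.00293 to 0.0134, which covers counting error only. The 8 ARRDC4 counts fell in 4 libraries of the tet lines, 2 in each, whereas 3 counts, the floor used here, correspond to 0.0301 to 0.0789 CPM. ARRDC4, a close relative of TXNIP, was therefore not detectable beyond a few reads, while TXNIP ran from 9.22 to 1111 CPM.

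**Figure D2:**
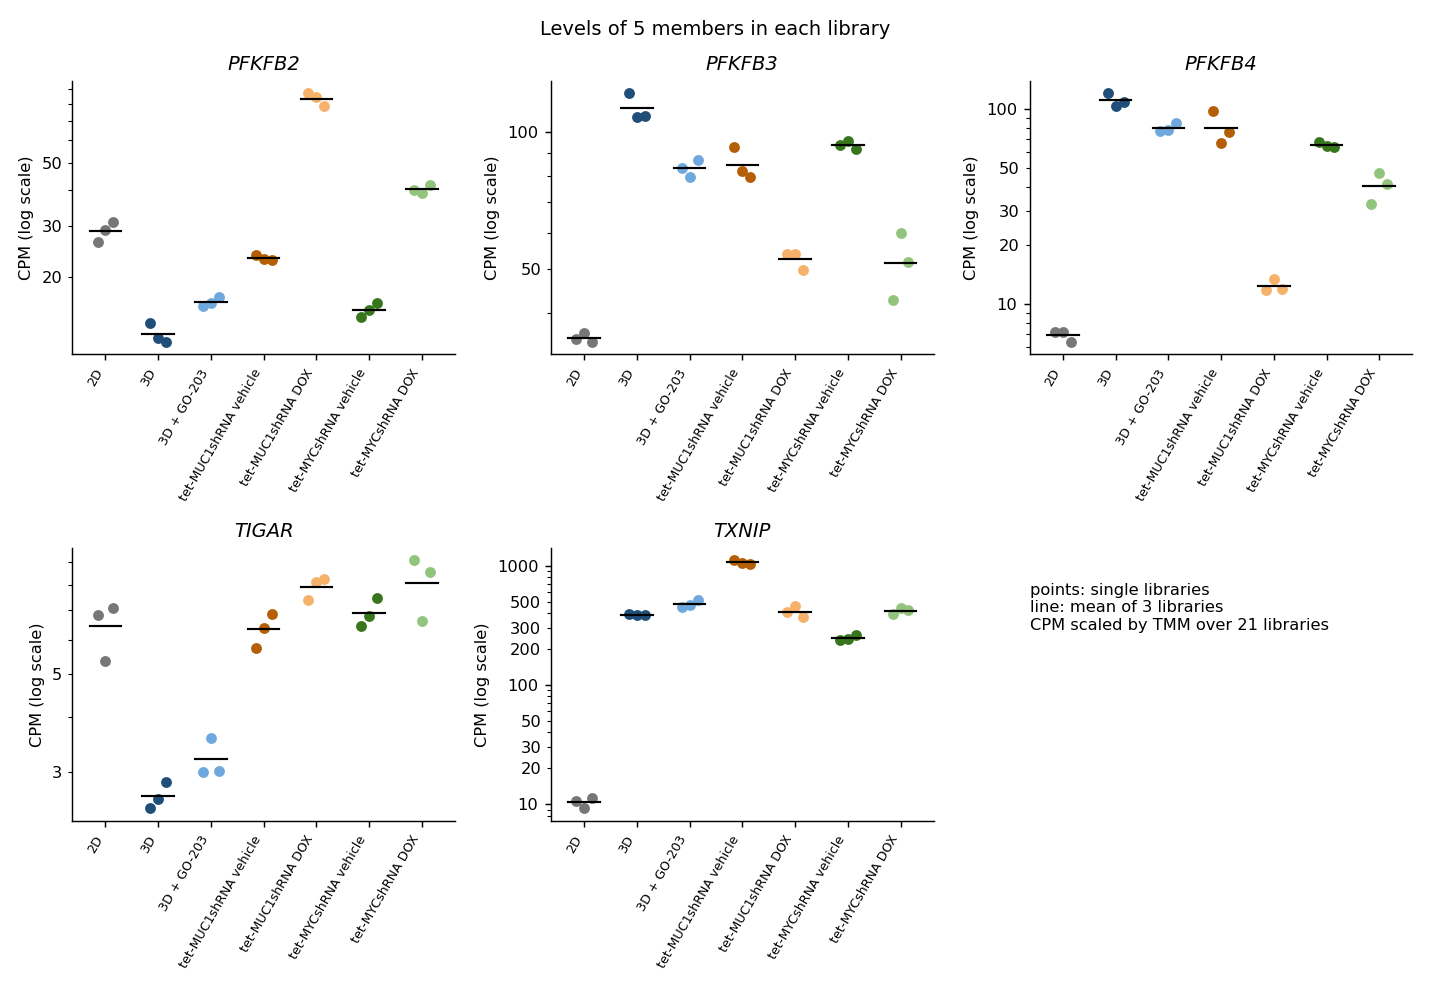
CPM on a log axis (y) of PFKFB2, PFKFB3, PFKFB4, TIGAR and TXNIP in the 7 groups (x), with a point for each library and a line at the mean of 3 libraries. TXNIP lies between 9.22 and 11.4 CPM in 2D cells and at 239 CPM or more in all mammosphere libraries, and PFKFB2 is highest in DOX-treated tet-MUC1shRNA cells.

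In 3D vs. 2D cells, PFKFB3, PFKFB4 and the arrestin TXNIP were upregulated, and PFKFB2 and TIGAR were downregulated. PFKFB4 rose 16.8-fold and TXNIP 38.7-fold, and PFKFB3 rose 3.30-fold. PFKFB2 fell to 0.454 and TIGAR to 0.428 of its 2D level. All 5 tested members passed the threshold (adjusted p below 0.1, edgeR's quasi-likelihood test), 3 higher and 2 lower, where 63.7% of the 19190 genes tested passed, 32% higher and 31.7% lower. Of the 5, 3 also passed an absolute log2 fold change of 1.5, against 16.2% of all genes. The median log2 fold change was 1.72 over the 5 members and -0.01 over all genes.

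PFKFB3 was at 35.2, 36.2 and 34.7 CPM in the 2D libraries and at 121, 108 and 108 CPM in the 3D libraries. The groups stood well apart, and its log2 fold change was 1.72 (standard error, SE, 0.06 and adjusted p = 9.46e-13). PFKFB4 was at 7.16, 7.16 and 6.39 CPM in 2D cells and at 120, 104 and 109 CPM in 3D cells. No library of one group came near the other, and the log2 fold change was 4.07 (SE 0.08, adjusted p = 3.60e-16). PFKFB2, a form regulated by phosphorylation of its C-terminal end, was at 26.4, 29.0 and 31.1 CPM in 2D cells and at 13.8, 12.2 and 11.8 CPM in 3D cells. Its groups did not overlap, and the log2 fold change was -1.14 (SE 0.09, adjusted p = 9.35e-09).

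TXNIP was at 10.6, 9.22 and 11.4 CPM in 2D cells and at 394, 385 and 384 CPM in 3D cells. The 3D libraries lay close together, and the log2 fold change was 5.27 (SE 0.08, adjusted p = 2.20e-17). Ranked by log2 fold change from the highest, TXNIP stood at place 252 and PFKFB4 at place 394 of the 19190 genes. TIGAR was at 6.83, 5.38 and 7.09 CPM in 2D cells and at 2.48, 2.60 and 2.85 CPM in 3D cells. These low levels were separate in the 2 groups, with a log2 fold change of -1.22 (SE 0.16, adjusted p = 4.67e-06).

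When vehicle-treated mammospheres of the tet-MUC1shRNA line stood in for 3D cells, against the same 2D libraries, the direction held for PFKFB3 (log2 fold change 1.30), PFKFB4 (3.58), TXNIP (6.71) and PFKFB2 (-0.27). With the vehicle-treated tet-MYCshRNA mammospheres it held for the same genes, at 1.43 for PFKFB3, 3.27 for PFKFB4, 4.60 for TXNIP and -0.89 for PFKFB2. TIGAR changed sign in both, at 0.023 (adjusted p = 0.889) and 0.13 (adjusted p = 0.424), so its fall was seen in the parental 3D cells and not in the mammospheres of either tet line.

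The enzymes around the members moved largely upward in 3D cells. All 3 phosphofructokinase-1 genes, the direct targets of fructose-2,6-bisphosphate, passed as higher, with log2 fold changes of 1.10 for PFKL, 0.52 for PFKM and 1.37 for PFKP. The list called lower glycolysis here also holds GPI, whose enzyme acts before phosphofructokinase-1. Of the 13 tested genes of this list, 12 were higher and 1 lower, with ALDOC at 3.79, ENO2 at 3.10 and GPI at 2.00 the largest rises. BPGM, which makes 2,3-bisphosphoglycerate, was the gene that fell, at -1.19. Of 9 tested genes of glucose uptake and phosphorylation, 6 were higher and 2 lower. The transporter SLC2A3 rose from 0.518 to 81.1 CPM (log2 fold change 7.34) and the hexokinase HK2 from 30.3 to 349 CPM (3.58). The transporters SLC2A12, from 7.67 to 0.139 CPM (-5.67), and SLC2A8 (-0.85) fell.

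In the pentose phosphate pathway, the branch that TIGAR favors, 6 of 8 tested genes were higher and 1 lower, with RPIA at 1.87, TKT at 0.79 and H6PD at -0.29. The 3 tested alpha-arrestins ARRDC1 (log2 fold change 2.82), ARRDC2 (1.81) and ARRDC3 (0.53) all rose with TXNIP. All 3 genes of the MondoA and ChREBP list were higher too, with MLXIP, which encodes MondoA, at 0.98 and its partner MLX at 0.69, whereas MLXIPL, which encodes ChREBP, was at 0 in 2D cells and at 0.310 CPM in 3D cells. Of the thioredoxin system, 2 of 5 tested genes were higher and 2 lower, with TXNRD3 at 3.31 the largest rise, and 1 was higher without 2D replicate 1 or 3D replicate 3. Among 7 factors known upstream of PFKFB3, PFKFB4 and TIGAR, 3 were higher and 2 lower. EPAS1 (HIF-2 alpha) rose with a log2 fold change of 3.18, and HIF1A fell with -0.79. Gluconeogenesis genes gave 2 higher and 1 lower of 4 tested, the lower one lost without 2D replicate 1 or 2 or 3D replicate 1 or 2, and the hexosamine branch 3 higher and 2 lower of 5, with PGM3 at -1.64 and UAP1 at 1.39. Over the 10 lists, 54 of 60 tested genes (90.0%) passed, 43 higher and 11 lower, against 63.7% of all genes.

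With GO-203, 4 of the members moved, by small amounts. PFKFB3 and PFKFB4 were downregulated to 0.749 and 0.731 of their 3D levels, and PFKFB2 and TXNIP were upregulated 1.31-fold and 1.25-fold. Of 5 tested members, 4 passed, 2 higher and 2 lower, where 24.1% of 18488 genes passed, 11.1% higher and 12.9% lower. None of the 5 passed the log2 fold change of 1.5, which 0.757% of all genes did. MUC1 itself had 202.7 ± 22.5 CPM (SD, n = 3) without and 252 ± 14.3 (SD, n = 3) with GO-203. Its log2 fold change of 0.33 passed (adjusted p = 0.00191), and MYC differed by -0.01 on the log2 scale (adjusted p = 0.908). The peptide acts on the protein, so neither transcript checks the treatment. These 3D libraries also enter the 3D vs. 2D comparison, and the directions of the 2 comparisons are therefore not independent.

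With GO-203, PFKFB3 was at 83.4, 79.5 and 86.7 CPM, below every control 3D library, for a log2 fold change of -0.42 (SE 0.06, adjusted p = 4.82e-05). PFKFB4 was at 77.6, 78.2 and 85.3 CPM, for a log2 fold change of -0.45 (SE 0.06, adjusted p = 2.46e-05). PFKFB2 was at 15.8, 16.2 and 16.99 CPM, above the 3D libraries, with a log2 fold change of 0.39 (SE 0.09, adjusted p = 0.00317). PFKFB2 thus moved against PFKFB3 and PFKFB4. TXNIP was at 453, 469 and 512 CPM, for a log2 fold change of 0.32 (SE 0.05, adjusted p = 0.00015). TIGAR, at 3.01, 3.59 and 3.02 CPM, did not pass, with a log2 fold change of 0.29 and a 95% interval from -0.07 to 0.65 (adjusted p = 0.276), although its groups did not overlap.

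All 3 phosphofructokinase-1 genes were lower with GO-203, PFKL by a log2 fold change of -0.37 and PFKM and PFKP by -0.32 each. In lower glycolysis 10 of 13 tested genes were lower and none higher, with ALDOA at -0.48, PGK1 at -0.44 and ENO2 at -0.43. For glucose uptake and phosphorylation, 3 of 8 were lower and none higher, with HK2 at -0.58 and SLC2A1 at -0.45. The pentose phosphate list gave 1 higher (H6PD, 0.38) and 1 lower (RPIA, -0.26) of 8. ARRDC1 (-0.45) and MLX (-0.28) were the genes of their lists that fell, and of 7 upstream factors EPAS1 was lower (-0.54) and ARNT higher (0.19). Among the upstream factors none was higher without GO-203 replicate 1 and 2 were without GO-203 replicate 2, and 2 were lower without GO-203 replicate 3. Without the latter, 2 genes of the MondoA and ChREBP list and 1 of the thioredoxin list were lower, and without GO-203 replicate 2 an alpha-arrestin was higher. Of the gluconeogenesis and thioredoxin lists, none of 4 and none of 5 passed, and the hexosamine branch gave 2 higher of 5, a count that fell to 0 without 3D replicate 1 or 2 and without GO-203 replicate 1 or 3. Over the 10 lists, 24 of 59 tested genes (40.7%) passed, 4 higher and 20 lower, against 24.1% of all genes.

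**Figure D3:**
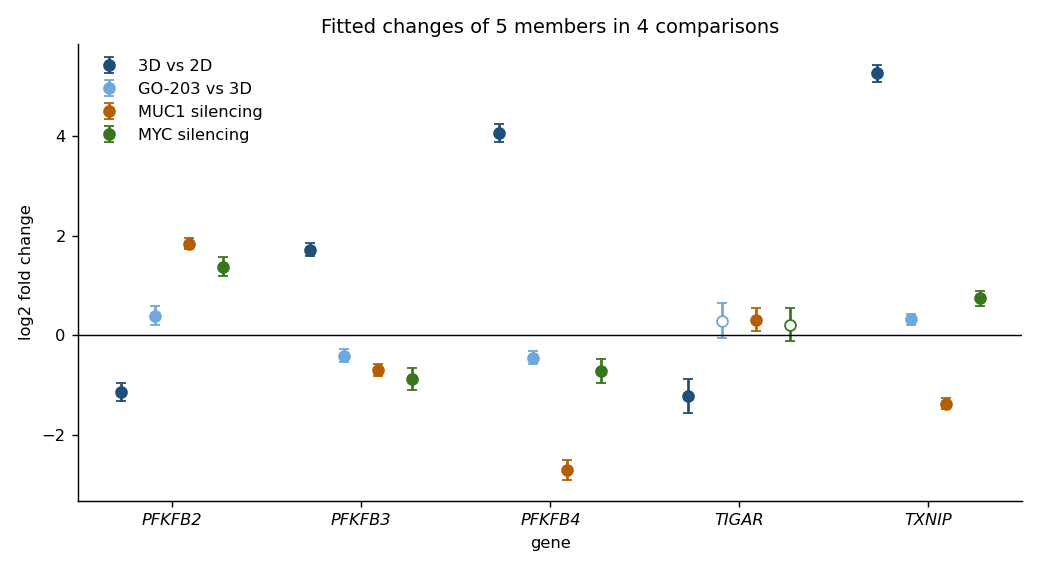
Fitted log2 fold change (y axis) of 5 members (x axis) in 4 comparisons, with 95% intervals from edgeR. Filled points passed an adjusted p of 0.1 and open points did not. PFKFB3 and PFKFB4 are above 0 in 3D vs. 2D cells and below it in the other comparisons, PFKFB2 is the reverse, and TXNIP falls on MUC1 silencing only.

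In tet-MUC1shRNA cells, MUC1 was at 101, 82.4 and 85.3 CPM with vehicle and at 20.2, 21.6 and 23.1 CPM with DOX, a log2 fold change of -2.06 (SE 0.07, adjusted p = 2.97e-15). MYC rose here, with a log2 fold change of 0.25 (adjusted p = 5.01e-05). On this silencing PFKFB4 fell to 0.153 of its vehicle level, TXNIP to 0.385 and PFKFB3 to 0.617, whereas PFKFB2 rose 3.58-fold and TIGAR 1.24-fold. All 5 tested members passed, 2 higher and 3 lower, where 62.2% of 19220 genes passed, 30.7% higher and 31.6% lower. PFKFB2 and PFKFB4 also passed the log2 fold change of 1.5, against 8.82% of all genes. With library size alone in place of TMM factors, the median change of all genes (log2) moved from 0.02 to 0.19 and the share of called genes that were higher from 49.3% to 64.4%. The 5 members kept their signs and calls under that scaling.

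PFKFB4 was at 97.4, 67.2 and 76.5 CPM with vehicle and at 11.7, 13.4 and 11.8 CPM with DOX. The vehicle libraries spread widely but all lay far above the DOX libraries, and the log2 fold change was -2.71 (SE 0.10, adjusted p = 3.29e-15). Counted from the lowest log2 fold change, PFKFB4 stood at place 137 of the 19220 genes. PFKFB3 was at 92.7, 82.0 and 79.4 CPM with vehicle and at 54.0, 54.0 and 49.7 CPM with DOX, for a log2 fold change of -0.70 (SE 0.06, adjusted p = 9.99e-10). PFKFB2 was at 23.7, 23.1 and 22.9 CPM with vehicle and at 87.1, 84.8 and 78.9 CPM with DOX, for a log2 fold change of 1.84 (SE 0.05, adjusted p = 1.15e-16). These are the highest PFKFB2 levels of the 7 groups.

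TXNIP was at 1111, 1044 and 1034 CPM with vehicle, the highest levels of the gene in any group, and at 412, 456 and 369 CPM with DOX. Its log2 fold change was -1.38 (SE 0.05, adjusted p = 4.45e-15), and the DOX libraries ended near the level of the parental 3D cells. TIGAR was at 5.76, 6.39 and 6.85 CPM with vehicle and at 7.38, 8.13 and 8.24 CPM with DOX. The log2 fold change of 0.31 (SE 0.11, adjusted p = 0.0233) was 0.24 with an adjusted p of 0.104 when vehicle replicate 1 was left out.

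Most of the enzymes around the members were lower on MUC1 silencing. All 3 phosphofructokinase-1 genes fell, PFKL with a log2 fold change of -1.03, PFKP with -0.85 and PFKM with -0.32. Of 8 tested genes of glucose uptake and phosphorylation, 7 were lower and none higher (1 without vehicle replicate 1), among them SLC2A3, from 98.1 to 1.75 CPM (log2 fold change -5.75), and HK2 (-2.09). In lower glycolysis 11 of 13 were lower and none higher, with ENO2 at -3.24, ALDOC at -2.83 and PGAM1 at -2.55. Among the alpha-arrestins, ARRDC3 (-1.14) and ARRDC2 (-0.64) fell with TXNIP while ARRDC1 rose (1.46).

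The pentose phosphate list gave 1 higher and 4 lower of 8, with TKT at -0.74, and the count of lower genes was 2 without vehicle replicate 1, without DOX replicate 2 or without DOX replicate 3. Its higher gene was lost without any 1 vehicle replicate and without DOX replicate 1 or 2. With library size alone the list gave 3 higher and 2 lower. MLXIP (-0.20) and MLX (-0.13) were both lower, only 1 of them without vehicle replicate 1 or DOX replicate 1 or 3, and did not pass with library size alone. Likewise, the thioredoxin list gave 1 higher (2 without DOX replicate 2) and 2 lower of 5 with TMM factors and 3 higher and none lower with library size alone. In the hexosamine branch 4 of 5 were lower, with GFPT1 at -1.79, against 2 lower and 1 higher with library size alone. Of 7 upstream factors, 6 were lower and 1 higher with TMM factors, with EPAS1 at 0.29, and 4 were lower with library size alone. Gluconeogenesis gave 1 higher and 2 lower of 4. Over the 10 lists, 48 of 58 tested genes (82.8%) passed, 5 higher and 43 lower, against 62.2% of all genes.

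In tet-MYCshRNA cells, MYC was at 446, 425 and 382 CPM with vehicle and at 239, 282 and 304 CPM with DOX, a log2 fold change of -0.62 (SE 0.08, adjusted p = 9.05e-05), so the silencing of the transcript was partial. MUC1 rose here, with a log2 fold change of 1.25 (adjusted p = 5.06e-06). PFKFB3 and PFKFB4 fell to 0.545 and 0.609 of their vehicle levels, and PFKFB2 and TXNIP rose 2.61-fold and 1.67-fold. Of 6 tested members 4 passed, 2 higher and 2 lower, where 58.5% of 19951 genes passed, 30.3% higher and 28.1% lower. None of the 6 passed the log2 fold change of 1.5, which 10.5% of all genes did.

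PFKFB3 was at 93.3, 95.4 and 91.9 CPM with vehicle and at 42.9, 60.01 and 51.9 CPM with DOX. The log2 fold change was -0.88 (SE 0.10, adjusted p = 3.69e-05), with a wider spread in the DOX libraries. PFKFB4 was at 67.4, 64.4 and 64.2 CPM with vehicle and at 32.7, 47.1 and 41.2 CPM with DOX, for a log2 fold change of -0.71 (SE 0.11, adjusted p = 0.000275). Both genes were lower in every DOX library than in any vehicle library. DOX replicate 1 was lowest for both, and without it the log2 fold changes were -0.78 (PFKFB3) and -0.60 (PFKFB4), both passing. Over all genes its counts also lay further from the other DOX libraries (chi-square per degree of freedom 52.8 and 36.3) than those lay from each other (19.5). PFKFB2 was at 14.4, 15.3 and 16.2 CPM with vehicle and at 40.1, 39.0 and 41.7 CPM with DOX, for a log2 fold change of 1.38 (SE 0.09, adjusted p = 5.80e-07).

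TXNIP was at 239, 243 and 264 CPM with vehicle and at 390, 444 and 425 CPM with DOX. The groups did not overlap, and the log2 fold change was 0.74 (SE 0.07, adjusted p = 9.03e-06). TIGAR was at 6.45, 6.81 and 7.47 CPM with vehicle and at 9.10, 6.61 and 8.56 CPM with DOX, groups that overlap. Its log2 fold change of 0.21 did not pass (95% interval -0.11 to 0.54, adjusted p = 0.256), and it was 0.34 with an adjusted p of 0.0582 without DOX replicate 2 and 0.098 with an adjusted p of 0.579 without DOX replicate 1. PFKFB1 was tested in this comparison alone among the 4, at -0.24 with a 95% interval of -1.77 to 1.30 (adjusted p = 0.799). Vehicle replicate 3 held 29 of its 46 vehicle counts, and the value was 0.89 without that library and -0.65 without vehicle replicate 1.

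The surrounding enzymes moved in both directions on MYC silencing. PFKL rose with a log2 fold change of 0.86 while PFKP fell with -0.89 and PFKM with -0.74. In glucose uptake and phosphorylation, 6 of 10 tested genes were lower and 3 higher, with SLC2A3 at -1.67, HK2 at -1.45 and SLC2A8 at 1.02, and without vehicle replicate 2 only 1 was higher. Lower glycolysis gave 5 lower and 1 higher of 13, with PGK1 at -0.95, PGAM1 at -0.76, ALDOC at -0.75 and ENO2 at 0.34, and 2 were higher without DOX replicate 1. In the pentose phosphate pathway 3 were higher and 2 lower of 8, with H6PD at 1.64 and RPIA at -1.36. MLXIP (-0.47) and MLX (-0.35) were lower, and ARRDC3 rose (0.35). ARRDC2, at -0.42, passed with an adjusted p of 0.0619 and was lost without any 1 vehicle replicate and without DOX replicate 1 or 3, and without DOX replicate 1 an alpha-arrestin more was higher. The hexosamine branch gave 3 lower of 5, with GFPT2 at -1.99, the thioredoxin list 2 lower of 5, gluconeogenesis 3 higher and 1 lower of 4, and the upstream factors 3 higher and 1 lower of 7, with EPAS1 at 0.91. None of the upstream factors was lower without vehicle replicate 3 or DOX replicate 3, and 2 were without DOX replicate 1. Over the 10 lists, 40 of 60 tested genes (66.7%) passed, 15 higher and 25 lower, against 58.5% of all genes.

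**Figure D4:**
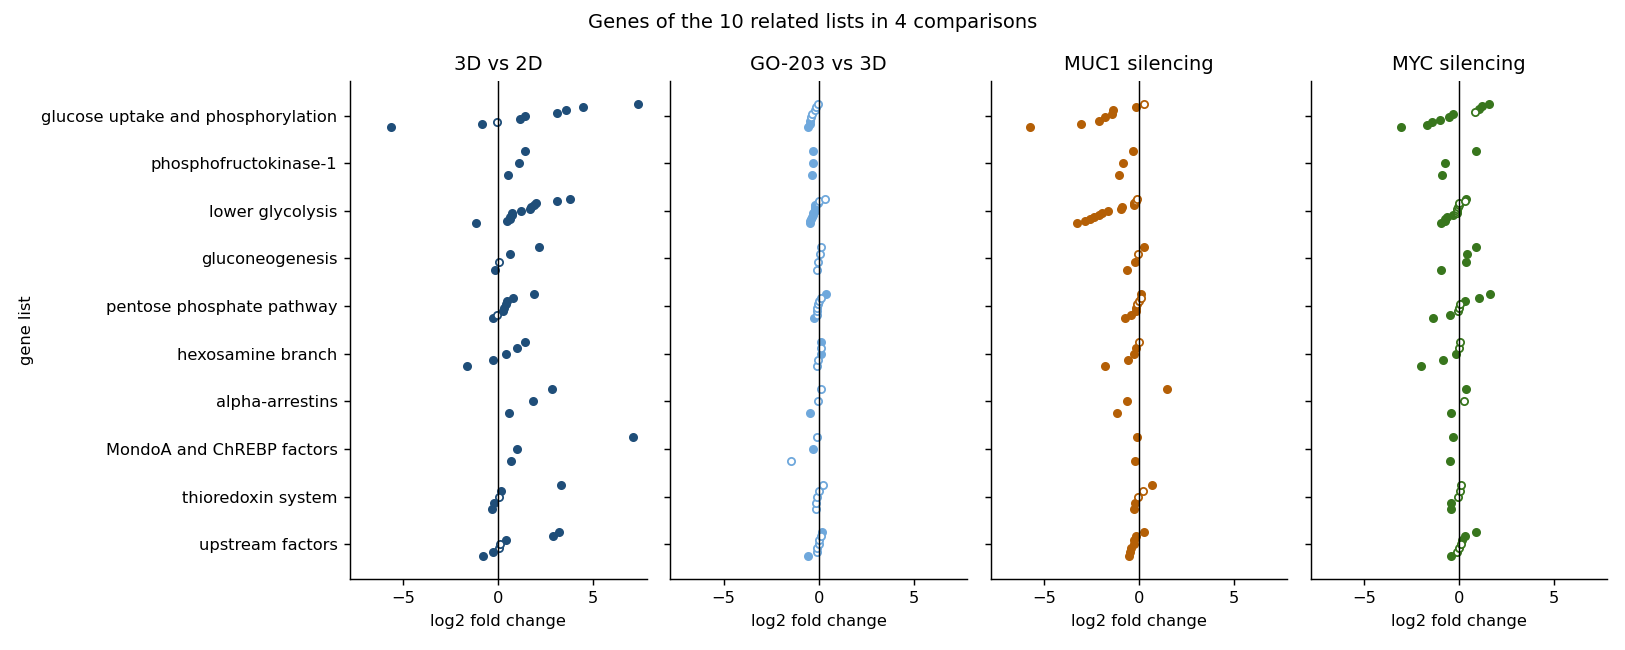
Log2 fold change (x axis) of every tested gene of the 10 related lists (y axis) in 4 comparisons (panels). Filled points passed an adjusted p of 0.1 and open points did not. Glucose uptake, phosphofructokinase-1 and lower glycolysis genes lie mostly above 0 in 3D vs. 2D cells and below 0 on MUC1 silencing. On MYC silencing most lower glycolysis genes also lie below 0, and the other lists of the 3 hold genes on both sides.

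Whether MUC1 and MYC silencing differed was then tested as an interaction over the 12 libraries of the tet lines. TXNIP, which fell on one silencing and rose on the other, differed by -2.13 on the log2 scale (SE 0.10, adjusted p = 6.32e-12). PFKFB4 fell further on MUC1 silencing, with a difference of -2.01 (SE 0.17, adjusted p = 2.65e-08). PFKFB2 rose further, with a difference of 0.44 (SE 0.09, adjusted p = 0.000781). Of 6 tested members, these 3 passed, where 52.9% of 21585 genes passed. PFKFB3 differed by 0.16, with a 95% interval from -0.10 to 0.43 (adjusted p = 0.304), TIGAR by 0.08 (-0.30 to 0.47, adjusted p = 0.745) and PFKFB1 by 0.05 (-2.21 to 2.32, adjusted p = 0.976). With single libraries left out, these values ran from -0.053 (without tet-MYCshRNA DOX replicate 2) to 0.19 (without DOX replicate 1 of that line) for TIGAR, and from -0.30 to 0.61 for PFKFB1 (without tet-MUC1shRNA vehicle replicates 2 and 3), so neither kept its sign. The PFKFB3 difference passed at 0.28 (adjusted p = 0.0302) without DOX replicate 2 of the tet-MYCshRNA line, was 0.057 (adjusted p = 0.666) without DOX replicate 1 of that line, and passed at 0.37 (adjusted p = 0.0116) with library size alone, a scaling that moved the median difference of all genes from 0.05 to 0.25 and the share of called genes that were higher from 49.1% to 61.2%. The lines also differ in passage number, depth of silencing and TXNIP vehicle level, which cannot be told apart from the target. In tet-MUC1shRNA and tet-MYCshRNA cells TXNIP was at 1063 and 248 CPM with vehicle and at 412 and 420 CPM with DOX.

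A further interaction set MUC1 silencing against GO-203, both aimed at MUC1-C. Of 5 tested members 4 differed, where 44.9% of 20829 genes did. PFKFB4 fell further on silencing, with a difference of -2.26 (SE 0.13, adjusted p = 1.50e-13). TXNIP, up with GO-203 and down on silencing, differed by -1.69 (SE 0.08, adjusted p = 1.64e-15). PFKFB2 differed by 1.45 (SE 0.09, adjusted p = 1.01e-12) and PFKFB3 by -0.28 (SE 0.09, adjusted p = 0.012). TIGAR differed by 0.03, with a 95% interval from -0.36 to 0.41 (adjusted p = 0.935), and by -0.039 to 0.11 with single libraries left out. The arms also differ in line, vector, DOX and, by their labels, DMSO, and the TXNIP reference level was 1063 CPM in one and 388 in the other, which cannot be told apart from the way MUC1-C was targeted. With library size alone the PFKFB3 difference was -0.12 (adjusted p = 0.251), while the median difference of all genes moved from -0.00335 to 0.15 and the share of called genes that were higher from 46.4% to 61.6%.

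Levels of different genes can be compared only per length, so CPM were divided by the exon length in kilobases (CPM per kb) from GENCODE release 44. The summed PFKFB level was 9.80 ± 0.264 CPM per kb (SD, n = 3) in 2D cells and 37.9 ± 2.702 (SD, n = 3) in 3D cells. It was 28.5 ± 1.22 (SD, n = 3) with GO-203. The sum fell from 29.3 ± 3.63 to 18.9 ± 0.877 (SD, n = 3 each) on MUC1 silencing and from 27.6 ± 0.223 to 19.1 ± 2.55 (SD, n = 3 each) on MYC silencing. In each of the 4 comparisons the 3 sums of one group lay apart from those of the other.

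The shares of the 4 genes in this sum also differed between groups. PFKFB3 held 59.0% of the summed CPM per kb in 2D cells, and between 44.1% and 55.4% in every mammosphere group. PFKFB4 took 11.5% in 2D cells and 48.1% in 3D cells. On MUC1 silencing the PFKFB4 share went from 44.6% to 10.7% and the PFKFB2 share from 7.84% to 43.5%. MYC silencing took the PFKFB2 share from 5.44% to 21.01% and the PFKFB4 share from 38.8% to 34.5%. The PFKFB2 share was 28.9% in 2D, 3.27% in 3D and 5.64% in GO-203-treated cells, and PFKFB1 stayed at or below 0.589% in the mean of every group. Exon length counts every annotated exon, and a change of isoform would change these shares.

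**Figure D5:**
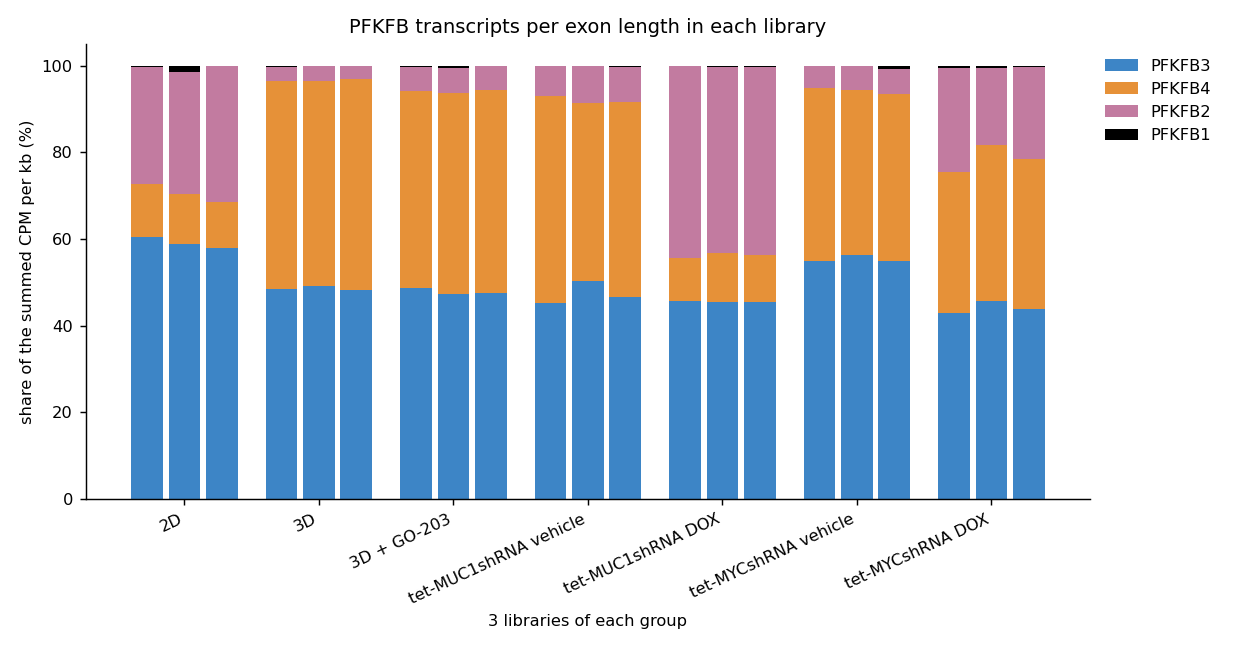
Share of the summed CPM per kb held by each PFKFB gene (y axis, %), with 1 bar for each of the 3 libraries in each group (x axis). PFKFB4 is a thin band in 2D and DOX-treated tet-MUC1shRNA cells and close to the PFKFB3 band in 3D cells, and PFKFB2 is widest in DOX-treated tet-MUC1shRNA cells.

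Ratios between PFKFB genes within a library do not depend on how libraries are scaled. The ratio of PFKFB4 to PFKFB3 per kb was 0.204, 0.198 and 0.184 in the 2D libraries and 0.994, 0.967 and 1.01 in the 3D libraries. With GO-203 it was 0.932, 0.984 and 0.984, overlapping the 3D libraries. It went from 1.05, 0.821 and 0.964 with vehicle to 0.218, 0.248 and 0.238 with DOX in tet-MUC1shRNA cells, a range just above that of 2D cells. On MYC silencing it went the other way, from 0.724, 0.676 and 0.7001 to 0.763, 0.786 and 0.794. The ratio of PFKFB2 to PFKFB4 was 2.52 in 2D and 0.0680 in 3D cells, and on MUC1 silencing it went from 0.177 to 4.08 and on MYC silencing from 0.141 to 0.614 (means, n = 3 each). Where groups do not overlap, an exact permutation test of 3 against 3 gives its smallest two-sided p of 0.1.

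Ordered by group mean, PFKFB4 ran from 6.90 CPM in 2D cells through 12.3 (tet-MUC1shRNA, DOX), 40.3 (tet-MYCshRNA, DOX), 65.4 (tet-MYCshRNA, vehicle), 80.3 (tet-MUC1shRNA, vehicle) and 80.3 (GO-203) to 111 in 3D cells. In a single fit of all 21 libraries, only the neighbours at 80.3 CPM did not pass an adjusted p of 0.1 (adjusted p = 0.979), while those at 65.4 and 80.3 CPM passed (adjusted p = 0.0118) although their libraries overlap. PFKFB3 ran from 35.4 in 2D cells through 51.6 (tet-MYCshRNA, DOX), 52.6 (tet-MUC1shRNA, DOX), 83.2 (GO-203), 84.7 (tet-MUC1shRNA, vehicle) and 93.5 (tet-MYCshRNA, vehicle) to 112 in 3D cells. The step between its DOX groups did not pass (adjusted p = 0.885), nor did that from GO-203 to vehicle-treated tet-MUC1shRNA cells (adjusted p = 0.859) or from these to vehicle-treated tet-MYCshRNA cells (adjusted p = 0.229). PFKFB2 ran in nearly the opposite order, from 12.6 in 3D cells through 15.3 (tet-MYCshRNA, vehicle), 16.3 (GO-203), 23.2 (tet-MUC1shRNA, vehicle), 28.8 (2D) and 40.3 (tet-MYCshRNA, DOX) to 83.6 (tet-MUC1shRNA, DOX). Only 15.3 and 16.3 were neighbours that did not pass (adjusted p = 0.209).

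TXNIP ran from 10.4 CPM in 2D cells through 248 (tet-MYCshRNA, vehicle), 388 (3D), 412 (tet-MUC1shRNA, DOX), 420 (tet-MYCshRNA, DOX) and 478 (GO-203) to 1063 (tet-MUC1shRNA, vehicle). The steps from 388 to 412 and from 412 to 420 did not pass (adjusted p = 0.661 and 0.662). TIGAR ran from 2.64 in 3D cells and 3.20 with GO-203 (adjusted p = 0.312) to between 6.33 and 8.09 in the 5 other groups, among which no step between neighbours passed (adjusted p between 0.234 and 0.883). The step from 3.20 to 6.33 CPM passed (adjusted p = 1.57e-06). For TXNIP, vehicle-treated tet-MYCshRNA cells lay below 3D cells (log2 difference 0.68, adjusted p = 9.22e-09), and vehicle-treated tet-MUC1shRNA cells lay above GO-203-treated cells (log2 difference 1.15, adjusted p = 1.61e-13).

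Genes whose log2 CPM followed a member most closely over the 21 libraries were taken from 12305 genes with a mean of at least 100 counts. PFKFB3 was closest to HK2 (Pearson r = 0.968), PRKX (0.968) and PPME1 (0.967). PFKFB4 was closest to SLC2A3 (0.981), GBE1 (0.981), the glycogen branching enzyme, and IMPDH1 (0.978). For PFKFB2 the closest were USP38 (0.970), PIP4K2C (0.967) and TSPAN9 (0.964), and for TIGAR they were GPR180 (0.933), LAMA3 (0.928) and PHC1 (0.919). TXNIP was closest to TSC22D3 (0.991), a glucocorticoid-induced gene, followed by ACSL4 (0.985) and FZD5 (0.979). These are descriptions over 21 libraries in 7 groups, so the points of a group share its condition, and the closest genes were picked for their r.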

How the data were processed

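Stranded, paired-end mRNA libraries from 21 BT-549 cultures were sequenced. The authors aligned reads to GRCh38 with STAR (2.7.3a in the submitters' processing notes, another version in the methods) and counted them per gene with featureCounts. They deposited raw counts without normalization. Which annotation release, strand setting and rule for multi-mapping reads they used is not given in the sources used here. Genes left blank in a block of libraries were read as 0, since no listed gene had a total of 0 over its block (for the GO-203 libraries, over these and the 3D libraries together).

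For each comparison, edgeR 4.0.16 (R 4.3.3) was run on the 6 libraries concerned: genes with low counts were removed with filterByExpr, libraries were scaled by TMM, and p-values of the quasi-likelihood test were adjusted by Benjamini-Hochberg over all genes tested. Passing means an adjusted p below 0.1, and a large change also needs an absolute log2 fold change above 1.5. Differences between silencings, and between MUC1 silencing and GO-203, were interactions over 12 libraries. The members, and the 10 lists of related genes, were chosen with earlier results of these data known, and lists are described by counts. The genes named are the members, up to 3 of the largest rises and 3 of the largest falls among the genes of a list that passed, the 3 genes with the highest Pearson r to each member with a mean of at least 100 counts (log2 CPM with a prior count of 2), and MUC1 and MYC. A few genes this rule or the marker list names are not reported here.

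Library totals of 38026597 to 99751717 counts make counting error small for 5 members and limiting for PFKFB1 and ARRDC4. Alternatives were DESeq2 1.42.0, RLE factors, library size alone, a filter of 1 count in total or of 10 counts in each library, a joint fit of the 21 libraries, the replicate number as a block, an adjusted p below 0.05, the large-change threshold, vehicle-treated tet mammospheres in place of 3D cells, and leaving out each library. The main edgeR fit of each comparison and interaction was first tested on simulated data with log2 changes of 2 and the same dispersion for all genes. The alternatives were not tested in this way. Promoters were from RefSeq, and gene positions and exon lengths from GENCODE release 44. Tables were handled with data.table (version 1.17.8) and pandas 2.3.3, and figures drawn with matplotlib 3.10.9.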

Additional observations from a re-analysis of the deposited data

Results flagged for a closer look

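The response to MUC1 silencing differed from the response to MYC silencing, by a test of the difference itself, for 3 members. The differences in log2 fold change (MUC1 minus MYC silencing) were 0.44 for PFKFB2 (adjusted p = 0.000781 from edgeR's interaction test), -2.01 for PFKFB4 (adjusted p = 2.65e-08) and -2.13 for TXNIP (adjusted p = 6.32e-12). TXNIP moved in opposite directions, lower with DOX in 3 of 3 tet-MUC1shRNA libraries and higher in 3 of 3 tet-MYCshRNA libraries than in any vehicle library of the same line. Its vehicle level was 1063 CPM in the tet-MUC1shRNA line and 248 CPM in the tet-MYCshRNA line. With DOX the lines stood at 412 and 420 CPM, a step that did not pass (adjusted p = 0.662 in the edgeR fit of all 21 libraries).

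The response to MUC1 silencing also differed from that to GO-203, in arms that differ in line, vector, DOX and, by their labels, DMSO as well. The differences in log2 fold change (MUC1 silencing minus GO-203) were 1.45 for PFKFB2 (adjusted p = 1.01e-12), -0.28 for PFKFB3 (adjusted p = 0.012), -2.26 for PFKFB4 (adjusted p = 1.50e-13) and -1.69 for TXNIP (adjusted p = 1.64e-15). PFKFB2, PFKFB3 and PFKFB4 had the same sign in both comparisons and a larger change on silencing, and TXNIP had opposite signs. The PFKFB3 difference did not pass with library size alone in place of TMM factors.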

How the results depend on the processing

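Of the member log2 fold changes refitted under alternatives, the directions and calls of PFKFB2, PFKFB3, PFKFB4 and TXNIP in the 4 comparisons held under DESeq2, RLE factors, library size alone, both filters, the fit of all 21 libraries, the replicate block, an adjusted p below 0.05 and each left-out library. TIGAR in 3D vs. 2D reversed to 0.023 with vehicle-treated tet-MUC1shRNA and to 0.13 with vehicle-treated tet-MYCshRNA mammospheres in place of 3D cells. These mammospheres differ from 3D cells in vector and, by the labels, in DMSO, and the tet-MYCshRNA line also in passage, which cannot be told apart, and the cause was not tested. The PFKFB3 difference between silencings passed at 0.24 with at least 10 counts in every library (adjusted p = 0.0914) and at 0.37 with library size alone, and that between MUC1 silencing and GO-203 was lost with library size alone.

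Requiring the large change, by its construction, cut the counts of members that passed to 3 (3D vs. 2D), 0 (GO-203), 2 (MUC1 silencing), 0 (MYC silencing), 2 (MUC1 minus MYC silencing) and 2 (MUC1 silencing minus GO-203). Over all genes it left 3107, 140, 1695 and 2085 in the 4 comparisons, 3487 for MUC1 minus MYC silencing and 1789 for MUC1 silencing minus GO-203. With library size alone, the order of the 7 group means stayed the same for 2 of 5 members, against 4 with RLE factors. Counts of 1 or 2 genes in a related list also moved by 1 or 2 genes under other settings. The count of 2 higher hexosamine genes with GO-203 was 0 at an adjusted p below 0.05. It was also 0 with a filter of 1 count and in the fit of all 21 libraries. The upstream factors on MYC silencing gave 2 higher and 2 lower with RLE factors, library size alone or a filter of 1 count, and the thioredoxin list in 3D vs. 2D gave 1 higher with library size alone, at least 10 counts in every library or an adjusted p below 0.05.

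Leaving out each library in turn, the members that passed numbered 5 to 5 for 3D vs. 2D, 4 to 4 for GO-203, 4 to 5 for MUC1 silencing, 4 to 5 for MYC silencing, 3 to 4 for MUC1 minus MYC silencing and 4 to 4 for MUC1 silencing minus GO-203. Same-numbered cultures did not deviate together (mean correlations across genes of -0.0182, 0.0638, 0.0176 and -0.104 in the 4 comparisons), though in the GO-203 comparison each sample correlated best with its own number. With the replicate block 5, 4, 5 and 4 members passed in the 4 comparisons, and 3 and 4 in the interactions, the same counts as without it, and it changed no other call of a member. All genes that passed with the block numbered 11802, 4973, 11922 and 10478, against 12223, 4452, 11962 and 11665 without it.

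The depth limits PFKFB1 and ARRDC4, for which the tests say nothing about change.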
